A study of Danio rerio with 24 samples.

Results

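The development of control eyes between 72 and 84 h post-fertilization (hpf) was followed on 8 of the 24 arrays of a zebrafish eye expression study, the 4 arrays of BBC-treated eyes at 84 hpf and the 4 arrays of BBC-treated eyes at 72 hpf. The arrays were chosen by the compound and age in their labels. Zebrafish of the AB line were exposed to 0.3 µM of BBC or MBZ (mebendazole) from 48 hpf, so eyes at 84 hpf had been exposed for 36 h, eyes at 72 hpf for 24 h, and eyes at 60 hpf for 12 h. BBC is a benzimidazole that served as the control for MBZ, and fish without either compound were not analysed here. Each array carried Cy3-labelled RNA from the pooled eyes of 50 fish, taken by dissection, so a replicate is a pool and the spread between single fish was not seen. The labels call the 4 samples of a group independent experiments. The fish were kept in a light cycle of 14 h of light and 10 h of darkness, and the 12 h between the ages also moved the hour of the day by 12 h. The arrays of the 2 ages lay on different slides scanned on different days. Age, length of exposure, hour of day and scan day therefore differed together between the groups and cannot be told apart.

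In the days around hatching the zebrafish retina passes from making neurons to seeing. Progenitors leave the cell cycle except at the rim of the retina, ganglion cells send axons to the brain, and photoreceptors build the outer segments that hold opsins and the proteins of phototransduction. In that cascade, light-activated opsin switches on transducin, transducin activates the phosphodiesterase PDE6, and the fall in cyclic GMP closes ion channels. Opsin kinases and arrestins then shut opsin off, and guanylate cyclase with its activator proteins restores cyclic GMP. The visual cycle, much of it in the pigment epithelium, regenerates the light-sensitive chromophore. Most zebrafish cells also hold a circadian clock that light sets directly, in which Clock and Bmal proteins drive the genes of their own repressors, the Per and Cry proteins.

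Markers of eye cells were detected in the dissected tissue. Of 27 markers of photoreceptors, lens, pigment epithelium, ganglion, amacrine and bipolar cells and Müller glia, 22 were tested, and all 22 were well above background on all 8 arrays. Detection was common, since 8448 of 9739 named genes passed a stricter filter of 4 spot flags on all 24 arrays. All 7 liver and yolk genes tested were also well above background on the 8 arrays. The marker count therefore does not measure how pure the eye tissue was. Values below are log2 signals after division by the array's 75th percentile over probe spots, which therefore lies at 0, and levels of different probes are not set against each other. Differences are means at 84 hpf minus means at 72 hpf, given as log2 ± SE from limma, and a gene or probe is said to have risen or fallen where the Benjamini-Hochberg adjusted p was below 0.05. Of 31507 probes above background in at least 1 condition of the series, 16962 (53.8%) passed, 6898 (21.9%) higher and 10064 (31.9%) lower at 84 hpf, and 4812 (15.3%) differed by at least 2-fold as well. Of 9739 named genes, each represented by its brightest probe, 5222 (53.6%) passed, 2227 (22.9%) higher and 2995 (30.8%) lower. Among the genes that passed, 1822 had more than 1 tested probe. All other probes had the same direction in 1353 of these and the same call in 1000, so the call of a gene can depend on the probe. A change of at least 2-fold was met by 475 genes (4.88%) upward and by 574 genes (5.89%) downward. A change of at least 2-fold in either direction was thus met by 10.8%. The 4 arrays of one age did not overlap the 4 of the other for 51.2% of genes, and for 87.3% of the genes called. Because more than 1 in 2 genes passed, the counts within gene groups below are read against these shares. The scaling of the arrays moved that balance: 40.7% of the called probes were higher at 84 hpf, against 51.5% with quantile normalization and 54.9% with the authors' normalized values, and the median over all genes was -0.07 here, 0.03 with quantile normalization and 0.05 with the authors' values (0.07 with a normexp background correction). That correction of the raw signals was the least like the others: it left 563 probes past the threshold and turned the direction of 69 of the 272 genes whose change is named below, against 6 with quantile normalization and 10 with the authors' values. Within an age, the slide of replicates 1 and 2 and the slide of replicates 3 and 4 differed at 1219 probes at 84 hpf and at 354 probes at 72 hpf.

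Cone opsins were among the largest changes in the eye. Transcripts of all 4 opsins above background on every array rose, between 8.58-fold and 38.4-fold, and no array at 72 hpf reached any array at 84 hpf. opn1mw1, a green-sensitive cone opsin, stood at 4.40, 4.36, 4.67 and 3.48 in BBC eyes at 84 hpf, against -1.64, -0.80, 0.02 and -1.71 at 72 hpf. The lowest array at 84 hpf was replicate 4 and the highest at 72 hpf was replicate 3. The difference was 5.26 ± 0.42, or 38.4-fold (adjusted p = 3.97e-09). For opn1sw2, the blue-sensitive opsin, the arrays gave 4.55, 4.38, 5.17 and 4.0 at 84 hpf and -0.28, 0.63, 1.41 and -0.28 at 72 hpf, a difference of 4.16 ± 0.43. The red-sensitive opsin opn1lw2 gave 6.01, 5.98, 6.47 and 5.49 at 84 hpf and 2.33, 3.13, 3.93 and 2.16 at 72 hpf, a difference of 3.1 ± 0.34. A second green-sensitive opsin, opn1mw2, differed by 3.89 ± 0.41, and its second probe by 5.67. The third, opn1mw3, was well above background on the 4 arrays at 84 hpf and on none at 72 hpf, with means of -6.15 and -7.57, and its difference did not pass (adjusted p = 0.130). Rhodopsin and the ultraviolet opsin were not analysed here. In pooled eyes, more photoreceptors and more RNA per photoreceptor cannot be told apart, nor can fewer cells of another type and less RNA in each.

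The cascade behind the opsins moved with them. Of 27 phototransduction genes tested, 22 rose and 3 fell, with a median of 1.63 beside -0.07 over all genes. Transducin was represented by its α subunits gnat2, of cones, and gnat1, of rods. gnat2 stood at 4.73, 4.74, 5.27 and 4.03 at 84 hpf and at 0.45, 1.05, 1.75 and 0.71 at 72 hpf, a difference of 3.70 ± 0.28 (13.0-fold, adjusted p = 2.10e-09). gnat1 stood at 3.18, 2.96, 3.61 and 2.72 at 84 hpf and at -1.03, -0.66, -0.35 and -0.98 at 72 hpf, a difference of 3.87 ± 0.25 (14.6-fold, adjusted p = 1.99e-10). Both subunits were thus higher on every array at 84 hpf than on any at 72 hpf. The β subunit gnb3b rose by 4.13 and gnb3a by 1.33, and the γ subunit gngt1 by 1.5. The catalytic PDE6 subunit of cones, pde6c, gave 3.65, 3.70, 4.09 and 3.06 at 84 hpf and -0.49, 0.05, 0.51 and -0.11 at 72 hpf and rose by 3.63 ± 0.26, while the rod subunit pde6a rose by 1.36 ± 0.19 and the inhibitory cone subunit pde6hb by 1.18 ± 0.27.

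Most transcripts of the proteins that end the light response also rose. Among opsin kinases, grk7a rose by 3.14 ± 0.29 (other probe 1.68) and grk1a by 1.0 ± 0.33 (2 of 4 arrays at 72 hpf above background), and grk1b gave -0.42, -0.54, 0.38 and -1.12 at 84 hpf and -6.60, -5.06, -5.10 and -5.40 at 72 hpf, a difference of 5.12 ± 0.40 (34.7-fold), with 3 of its 4 arrays at 72 hpf well above background. The cone arrestins arr3a and arr3b rose by 2.24 ± 0.26 and 2.36 ± 0.29, and the rod arrestins saga and sagb by 1.92 ± 0.26 and 1.47 ± 0.31. The recoverins, calcium sensors of the opsin kinases, rose by 1.58 (rcvrna), 1.63 (rcvrn2) and 2.13 (rcvrn3). Of the activators of guanylate cyclase, guca1g rose by 2.93 ± 0.23, guca1aa by 1.95 ± 0.23, guca1b by 1.79 ± 0.37 and guca1c by 1.16 ± 0.29, and guca1ab.1 was the only one to fall (-0.50 ± 0.15). The other phototransduction genes that fell were gnb1b (-0.75 ± 0.11), a transducin β subunit that other neurons also use, and rgs9b (-0.50 ± 0.16), an accelerator of transducin shut-off. Values for gnb1a and grk7b were 0.03 ± 0.08 and 0.19 ± 0.19, and neither passed.

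**Figure D1:**
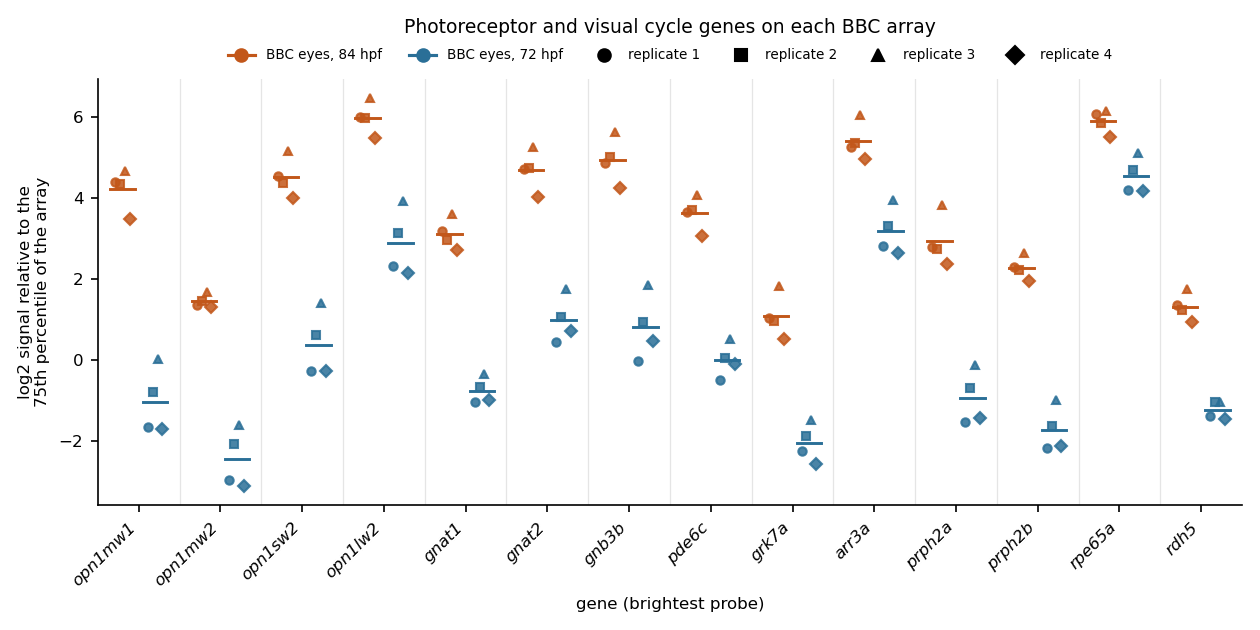
Log2 signal over the array's 75th percentile (vertical axis) for 14 photoreceptor and visual cycle genes (horizontal axis), with 4 arrays of BBC eyes at 84 hpf to the left of 4 arrays at 72 hpf for each gene; point shapes are replicates and bars are group means. The 2 ages do not overlap for any of the 14 genes, and replicate 3 is the highest array at 72 hpf for opn1mw1, opn1sw2 and gnat2.

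Genes of the outer segment were among those of photoreceptor structure and fate that rose. The disc-rim tetraspanins prph2b and prph2a rose by 4.0 ± 0.31 and 3.88 ± 0.39, their relatives rom1b and rom1a by 1.98 ± 0.29 and 1.73 ± 0.36, and prom1b, a membrane protein of forming discs, by 1.16 ± 0.26. The retinoid transporter abca4a rose by 0.95 ± 0.23. The transcription factors crx and otx5 differed by 0.04 ± 0.17 and 0.00 ± 0.14, which did not pass, and tbx2b fell by 0.76, with a difference of -0.36 without replicate 3 at 84 hpf. Over the list of photoreceptor structure and fate, 6 of 15 genes rose and 2 fell (tbx2b and unc119b), and the other 7 did not pass. The median was 0.18. With quantile normalization 8 rose and 1 fell (median 0.54), and with the authors' values 9 rose and 1 fell (median 0.57).

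Visual cycle genes rose in part. Of 15 tested, 9 rose and 3 fell, with a median of 0.46. rdh5, which oxidizes retinol in the pigment epithelium, stood at 1.37, 1.23, 1.76 and 0.94 at 84 hpf, against -1.38, -1.05, -1.05 and -1.46 at 72 hpf, and rose 5.88-fold (2.56 ± 0.17, adjusted p = 3.33e-10). The isomerase of the cycle, rpe65a, stood at 6.08, 5.86, 6.16 and 5.52 at 84 hpf, against 4.19, 4.71, 5.12 and 4.17 at 72 hpf, a difference of 1.35 ± 0.21. The 2 ages did not overlap for either gene. The photoreceptor retinol dehydrogenases rdh8b and rdh8a rose by 1.97 ± 0.20 and 0.98 ± 0.22, and rgra, an opsin of the pigment epithelium, by 1.58 ± 0.20. The members that fell were rbp4, the plasma carrier of retinol (-0.44 ± 0.17), dhrs3a, a retinal reductase (-0.54 ± 0.15), and bco1l, which was well above background on 1 of the 8 arrays, at 72 hpf, so that its difference has no measured size.

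Melanin genes, which pigment the same epithelium, changed less. 7 of 10 rose, by at most 0.78: the melanosome proteins pmela (0.78 ± 0.10) and pmelb (0.76 ± 0.14), the transporter slc45a2 (0.63 ± 0.11), trpm1b, dct, mitfa and gpr143. tyrp1b fell (-0.46 ± 0.18), its 2 ages overlapped, and its direction turned with quantile normalization and with the authors' values. Of 8 genes of other pigment cells, gch2, the first enzyme of pteridine synthesis, fell by 1.56, pts, a later one, fell by 0.84, and tfec, a transcription factor of pigment cells, rose by 0.51.

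The 2 largest falls among all genes were those of clock genes. Of 32 tested, 17 fell and 4 rose, 12 of the falls were of at least 2-fold, and the median was -0.79. per1b, a Period repressor, stood at -1.23, -1.2, -1.24 and -1.21 at 84 hpf and at 3.6, 3.59, 3.67 and 3.58 at 72 hpf. The arrays of an age lay within 0.1 log2 units of each other, and the difference was -4.83 ± 0.11, 28.4-fold lower at 84 hpf (adjusted p = 2.72e-17), with a second probe at the same value. per3 stood at -6.42, -5.32, -5.68 and -5.33 at 84 hpf and at -1.61, -1.53, -1.62 and -1.33 at 72 hpf, 17.9-fold lower (-4.16 ± 0.20). The nuclear receptor nr1d1, a repressor of Bmal genes, gave -2.96, -2.84, -1.88 and -3.45 at 84 hpf and -0.18, -0.17, 0.46 and -0.14 at 72 hpf, a difference of -2.78 ± 0.39. No array of one age reached the other for these 3 genes.

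Further falls of at least 2-fold were cry5 (-2.51 ± 0.18), cry-dash (-2.47 ± 0.14) and cry1b (-2.07 ± 0.17) of the cryptochrome and photolyase family, tefa (-1.92 ± 0.10) and tefb (-1.08 ± 0.17), which bind D-box elements, per2 (-1.72 ± 0.10), a Period gene that light induces in zebrafish, the repressor bhlhe40 (-1.51 ± 0.14), clocka (-1.46 ± 0.25) and cry3a (-1.07 ± 0.12). Smaller falls were those of per1a (-0.93 ± 0.15), bmal2 (-0.91 ± 0.12), cry2 (-0.83 ± 0.14), roraa (-0.75 ± 0.25) and fbxl3b (-0.54 ± 0.21). The 4 clock genes that rose were aanat1, an enzyme of melatonin synthesis (0.76 ± 0.19), cry3b (0.71 ± 0.14), bhlhe41 (0.42 ± 0.12) and bmal1a (0.35 ± 0.08), the partner of Clock. The other 11 lay between -0.82 and 0.61 and did not pass. The arrays of roraa and fbxl3b overlapped between the ages.

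The 60 and 84 hpf eyes were collected 24 h apart and the 72 hpf eyes between them. Mean per1b was -0.25 ± 0.18 at 60 hpf, 3.61 ± 0.04 at 72 hpf and -1.22 ± 0.02 at 84 hpf (SD, n = 4 each), and mean tefa was 2.07 ± 0.07, 3.70 ± 0.13 and 1.77 ± 0.10 at these ages. cry3b ran the other way, at -2.72 ± 0.04, -3.96 ± 0.11 and -3.24 ± 0.25. per2 and bhlhe40 had a different profile, with means of -1.54 and 2.89 at 60 hpf, -1.29 and 2.99 at 72 hpf, and -3.01 and 1.48 at 84 hpf. For per1b the change from 60 to 72 hpf was 3.86 ± 0.11 and for per2 it was 0.25 ± 0.10. The changes from 60 to 72 hpf and from 72 to 84 hpf share the 72 hpf arrays, so each is given for itself.

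**Figure D2:**
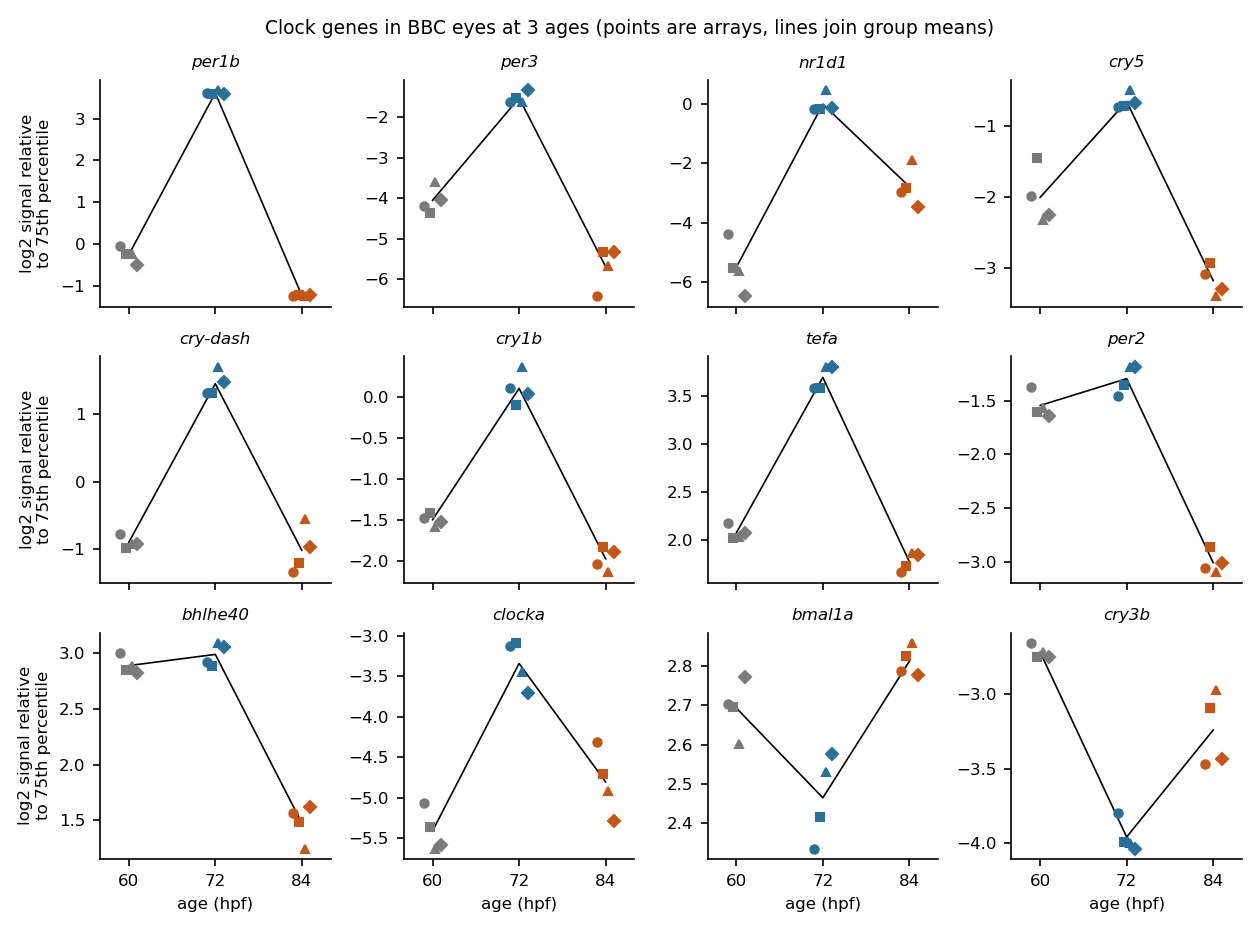
Log2 signal over the array's 75th percentile (vertical axes, each panel with its own scale) against age in hpf (horizontal axes) for 12 clock genes in BBC eyes; each point is an array (shape: replicate) and lines join the means of 4 arrays. per1b, tefa and cry1b are highest at 72 hpf, per2 and bhlhe40 are lowest at 84 hpf, and bmal1a and cry3b are lowest at 72 hpf.

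Regulators outside these groups stood among the 15 largest falls. tcf7l2, a transcription factor of the Wnt pathway, stood at -1.79, -1.62, -2.07 and -1.58 at 84 hpf and at 1.86, 1.72, 1.45 and 1.32 at 72 hpf (-3.36 ± 0.18, 10.3-fold lower). Its other probes gave -2.45 and -1.83. arnt2, a dimerization partner of other basic helix-loop-helix factors, stood at -4.45, -4.37, -4.35 and -4.30 at 84 hpf and at -1.07, -1.37, -1.26 and -1.46 at 72 hpf (-3.08 ± 0.18). For rnf220a, a ubiquitin ligase, the values were -2.82, -2.46, -2.33 and -2.19 at 84 hpf and 0.52, 0.52, 0.56 and 0.50 at 72 hpf (-2.98 ± 0.12). These 3 genes and dbnlb, an actin-binding drebrin-like protein (-2.86 ± 0.17), did not overlap between the ages. From 60 to 72 hpf tcf7l2 had risen by 2.53, arnt2 by 2.52, rnf220a by 2.36 and dbnlb by 2.39. Of all 574 genes at least 2-fold lower at 84 hpf, 371 had risen and 29 had fallen from 60 to 72 hpf. Of the 475 at least 2-fold higher, 153 had risen and 243 had fallen. Over that interval 35.9% of all genes rose and 33% fell. Both intervals share the 72 hpf arrays, which favours opposite signs, and no cause was tested. Of the 15 largest rises ranked in the same way, 13 belonged to lists described here and the other 2 were ppa1a, an inorganic pyrophosphatase (3.01 ± 0.24), and zgc:163073 (2.90 ± 0.33). The rise of grk1b lay outside that ranking, since not all its arrays at 72 hpf were above background.

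Progenitor genes fell more often than they rose. Of 35 genes of retinal progenitors, 22 fell and 6 rose, with a median of -0.49. notch1b, a Notch receptor, gave -2.95, -3.27, -3.30 and -2.66 at 84 hpf and 0.09, -0.24, -0.80 and -0.40 at 72 hpf, 6.52-fold lower (-2.70 ± 0.23, adjusted p = 7.62e-09). sox11a, a factor of newborn neurons, gave 4.25, 4.43, 3.94 and 4.46 at 84 hpf and 6.37, 6.32, 6.21 and 6.33 at 72 hpf (-2.04 ± 0.16). Neither gene overlapped between the ages, and every probe of each fell in value. foxn4, which specifies amacrine and horizontal cells in vertebrates, differed by -1.60 ± 0.17 and the Notch ligand dla by -1.43 ± 0.19. The members that rose were six3b (0.64 ± 0.10), rx3 (0.59 ± 0.16), rx2 (0.50 ± 0.11), rx1 (0.47 ± 0.13), six6a (0.37 ± 0.11) and the Notch ligand dld (0.34 ± 0.10); these homeobox genes, dld apart, specify the eye field early and remain on in parts of the differentiated retina. Relative to all genes the list median was lower at 84 hpf with quantile normalization and the authors' values too, and higher with the normexp background correction.

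Cell-cycle genes showed smaller shifts and both directions. Of 43 genes of DNA replication, 19 fell, 4 rose and 20 did not pass, and of 37 mitotic genes 14 fell, 3 rose and 20 did not pass. The medians were -0.38 and -0.31, and both were above that of all genes with the normexp background correction. ccne1, cyclin E1, which starts S phase, fell most among replication genes, with arrays at -1.75, -1.56, -1.53 and -1.04 at 84 hpf against 0.17, -0.04, -0.19 and 0.26 at 72 hpf (-1.52 ± 0.16). It was followed by the histone chaperone subunit chaf1a (-1.2 ± 0.18), the replication factor gins3 (-1.14 ± 0.19) and the ribonucleotide reductase subunit rrm1 (-1.09 ± 0.19). In contrast, ccne2 (0.92 ± 0.19), rfc1 (0.52 ± 0.13), the sliding clamp pcna (0.52 ± 0.20) and orc3 (0.45 ± 0.15) rose, although the arrays of pcna overlapped. Of the mitotic genes, the kinesin kif18a (-0.90 ± 0.15), the transcription factor mybl2b (-0.85 ± 0.16), the kinetochore protein nuf2 (-0.85 ± 0.17) and cyclin A2, ccna2 (-0.79 ± 0.22), fell most, and the condensin subunits smc2 (0.94 ± 0.20) and smc4 (0.49 ± 0.16) and the cytokinesis factor ect2 (0.65 ± 0.14) rose. The direction of smc2 turned downward when the mean over its probes was used. The count of falling replication genes was 10 without replicate 1 or replicate 4 at 72 hpf or without replicate 3 at 84 hpf, and 11 without replicate 1 at 84 hpf. Among 12 genes of cell-cycle exit, 4 fell, led by the kinase inhibitor cdkn1bb (-1.0 ± 0.18) and btg1 (-1.0 ± 0.13), and 2 rose (rb1 and ccng2). With the mean over its probes rb1 also turned downward.

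Most axon growth genes fell. Of 31 genes of ganglion cells and growing axons, 23 fell and 3 rose, with a median of -0.70 that was 0.05 above that of all genes with the normexp background correction. cntn2, an adhesion protein of young axons, stood at -4.73, -4.06, -5.17 and -5.34 at 84 hpf and at -2.05, -2.26, -2.23 and -2.25 at 72 hpf, 6.18-fold lower (-2.63 ± 0.30). efnb2a, an ephrin guidance ligand, stood at -4.72, -4.72, -4.89 and -5.05 at 84 hpf and at -2.20, -2.33, -2.62 and -2.73 at 72 hpf, 5.18-fold lower (-2.37 ± 0.19). The arrays of the 2 ages were apart for both genes. The adhesion protein l1camb (-2.01 ± 0.19) and the neuronal RNA-binding protein elavl3 (-1.41 ± 0.16) followed. The members that rose were the intermediate filament inab (0.49 ± 0.10), the synuclein sncga (0.44 ± 0.13) and the G protein subunit gng3 (0.28 ± 0.10). From 60 to 72 hpf the median of this list was 0.52, with 19 rises and 2 falls.

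Among 30 transcription factors of retinal neurons, 16 did not pass. The shares that fell and rose were 36.7% and 10.0%, beside 30.8% and 22.9% of all genes. 11 of 30 fell, with the largest falls in lhx9 (-1.40 ± 0.13), ebf2 (-1.37 ± 0.24), lhx1a (-1.37 ± 0.17), a marker of horizontal cells, and onecut1 (-1.2 ± 0.19), and 3 rose: bhlhe23 (1.47 ± 0.23), prdm1a (0.44 ± 0.18) and isl1a (0.41 ± 0.12). In vertebrate retina bhlhe23 acts in bipolar and amacrine cells. With the authors' values 9 genes of this list fell and 5 rose.

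Synapse genes divided evenly with the main scaling, with 12 of 38 higher and 12 lower at 84 hpf and a median of 0.02. With quantile normalization 12 rose and 8 fell, and with the authors' values 12 rose and 7 fell. The largest rise was that of cplx4a, a complexin of the ribbon synapses of photoreceptors and bipolar cells, at 0.35, 0.17, 0.80 and -0.31 at 84 hpf against -3.36, -3.14, -2.92 and -4.30 at 72 hpf (3.68 ± 0.30, 12.8-fold, other probe 1.63). slc18a3a, which loads acetylcholine into vesicles, rose by 2.42 ± 0.23, syt5b, a synaptotagmin, by 1.33 ± 0.28, and grm6b, the glutamate receptor of ON bipolar cells, by 1.32 ± 0.22. The largest fall was that of slc17a6b, a vesicular glutamate transporter, at -5.03, -4.96, -5.60 and -5.51 at 84 hpf against -2.6, -2.70, -2.76 and -3.26 at 72 hpf (-2.45 ± 0.50). Its paralog slc17a6a fell by 1.36, and the glycine transporters slc6a9 and slc6a5 differed by -1.52 ± 0.18 and -1.49 ± 0.37. The 2 ages did not overlap for cplx4a or slc17a6b.

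**Figure D3:**
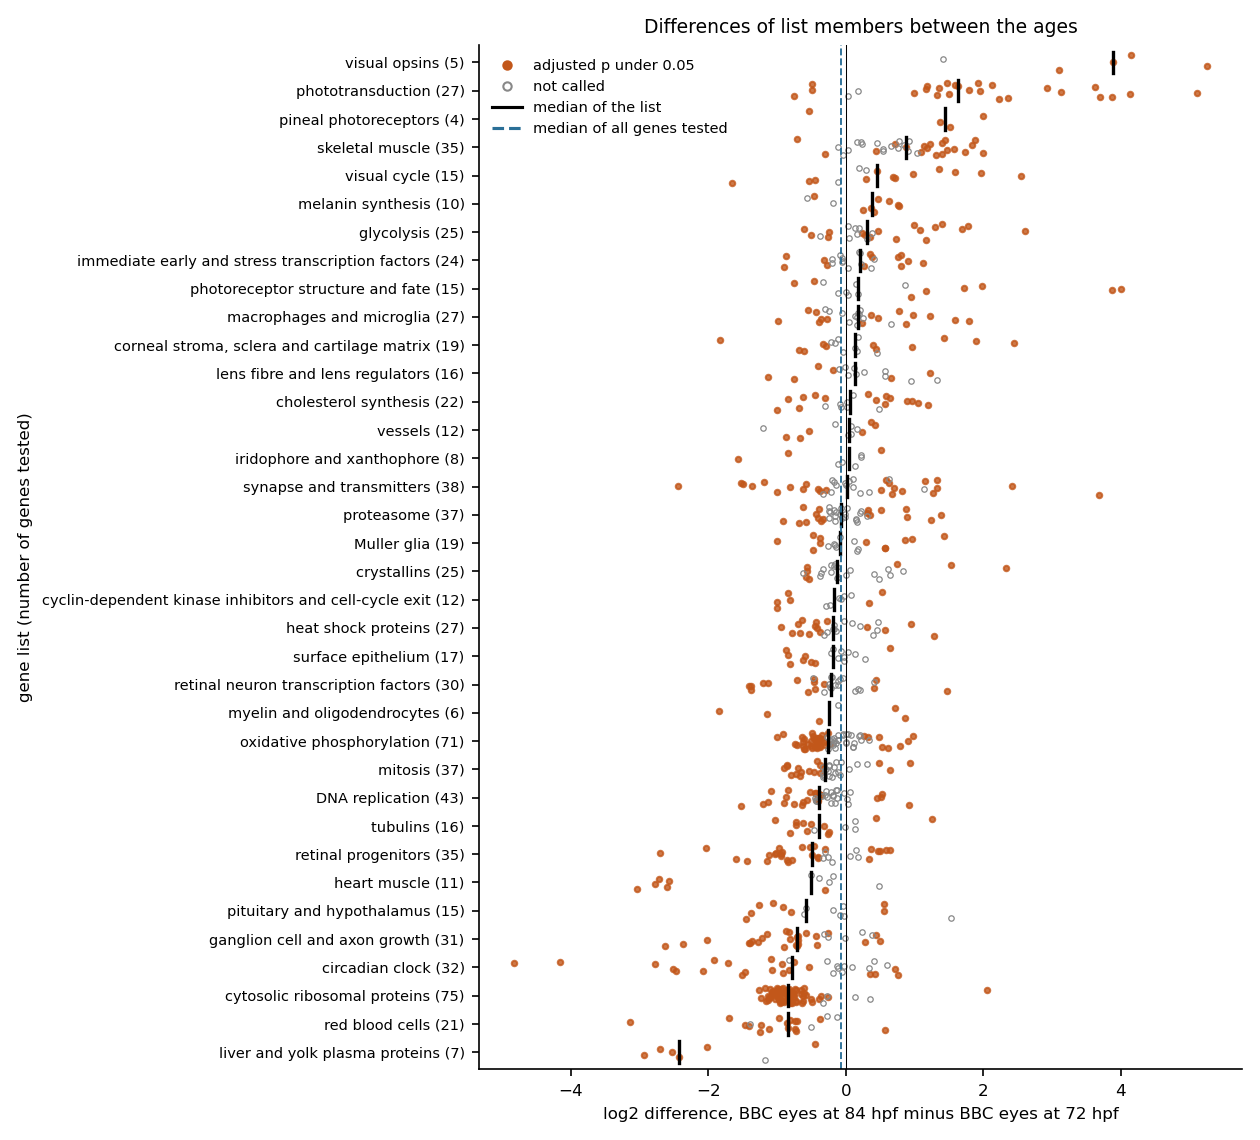
Log2 difference of BBC eyes at 84 hpf minus BBC eyes at 72 hpf (horizontal axis) for every tested member of each gene list (vertical axis, lists ordered by their median, number tested in brackets); filled points passed an adjusted p of 0.05, open points did not, black bars are list medians, and the dashed line is the median over all genes. Opsins and phototransduction lie at the top, with medians of 3.89 and 1.63, and red blood cell and liver and yolk genes at the bottom, with medians of -0.84 and -2.42.

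Genes of the translation apparatus fell together with the main scaling. Of 75 cytosolic ribosomal protein genes, 70 fell and 1 rose, with a median of -0.84, but with quantile normalization 22 fell and 5 rose, and with the authors' values 16 fell and 6 rose. From 60 to 72 hpf the median of these genes was 0.61, with 60 rises and 3 falls. The slides of 84 hpf stood apart: relative to the mean at 72 hpf the median of the list was -0.62 and -0.56 on replicates 1 and 2 and -1.03 and -1.18 on replicates 3 and 4, and all 4 lay below the arrays at 72 hpf. rps28 differed by -1.26 ± 0.12, rpl34 by -1.23 ± 0.19, rps6 by -1.18 ± 0.14 and rpl22 by -1.16 ± 0.15. The exception was rps27.2, at 5.76, 6.04, 5.95 and 5.85 at 84 hpf against 3.73, 3.52, 3.72 and 4.39 at 72 hpf, 4.17-fold higher (2.06 ± 0.18), with its second probe at 1.73. Signals of this gene did not overlap between the ages. Probes may not separate it from its paralog.

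Oxidative phosphorylation behaved in the same scaling-dependent way. 36 of 71 genes fell and 8 rose (median -0.26), against 19 and 12 with quantile normalization and 18 and 15 with the authors' values, where the median relative to all genes was 0.03. The largest falls were in ndufs3 (-1.01 ± 0.23, arrays overlapping, -0.63 without replicate 4 at 84 hpf), uqcrb (-0.91 ± 0.10), cox6b2 (-0.74 ± 0.13) and cox5b2 (-0.71 ± 0.15), and the largest rises in the complex I subunits ndufv1 (0.98 ± 0.10) and ndufa9a (0.91 ± 0.10) and in cox4i2 (0.80 ± 0.16). From 60 to 72 hpf the median of the oxidative phosphorylation list was 0.33, with 36 rises and 11 falls. Tubulins, 10 of 16 of which fell with a median of -0.39, numbered 3 falls and 2 rises with quantile normalization and stood at 0.02 relative to all genes with the authors' values. tubb5 (-1.03 ± 0.17), tuba1c (-0.81 ± 0.16), tuba8l4 (-0.73 ± 0.14) and tubb4b (-0.72 ± 0.14) fell most, the last 2 turning upward with the authors' values, and tubb6 (1.25 ± 0.22) and the centrosomal tubg1 (0.44 ± 0.11) rose.

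Glycolytic genes rose more often than they fell under each scaling that made calls in the list. 13 of 25 rose and 4 fell, with a median of 0.32, and with quantile normalization 16 rose and 1 fell. ldhbb, a lactate dehydrogenase, gave 0.02, -0.18, 0.70 and -0.09 at 84 hpf and -2.84, -2.47, -1.94 and -2.77 at 72 hpf, 6.13-fold higher (2.62 ± 0.26, adjusted p = 7.25e-08). pkmb, pyruvate kinase (1.78 ± 0.60), pfkmb, phosphofructokinase (1.69 ± 0.27), and tpi1b, triosephosphate isomerase (1.41 ± 0.09), followed, and pgam1a (-0.61 ± 0.10), gapdhs, eno1a and ldha fell, eno1a turning upward with quantile normalization and the authors' values. Some glycolytic isoforms, pfkmb among them, are used by muscle, whose markers also rose (below), and the part of muscle in these rises was not tested.

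Heat shock proteins fell in 11 of 27 genes and rose in 4. The abundant chaperones hspa8 (-0.94 ± 0.25, -0.53 without replicate 4 at 84 hpf) and hsp90ab1 (-0.78 ± 0.21), hspb6 (-0.70 ± 0.18) and the endoplasmic reticulum chaperone hsp90b1 (-0.67 ± 0.10) fell most, and hsc70, hspb3, hspa4a (0.57 ± 0.11) and hspa9 (0.31 ± 0.08) rose. With the mean over its probes hspa9 turned downward. With quantile normalization 4 fell and 4 rose. The proteasome had 8 rises and 9 falls among 37 genes, from psmc1b (1.38 ± 0.12) to psma5 (-0.91 ± 0.12). These counts are 21.6% and 24.3% of the list, near the 22.9% and 30.8% of all genes. In cholesterol synthesis 9 of 22 rose and 6 fell: hmgcrb, the rate-limiting reductase, rose by 1.2 ± 0.09 and idi1 by 1.05 ± 0.09, while the later enzymes cyp51 and msmo1 differed by -1.0 ± 0.23 and -0.84 ± 0.10. Of 24 immediate early and stress factors, 8 rose, led by egr2b (1.13 ± 0.20) and fosl2 (0.91 ± 0.18), and 4 fell, led by dusp1 (-0.89 ± 0.19), whose other probe gave 0.32, and npas4a (-0.87 ± 0.17).

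In the lens most crystallins, the proteins that fill its fibre cells, did not pass. 4 of 25 fell (cryba2b, -0.57 ± 0.18; crygmx, -0.57 ± 0.15; crygm2d18, -0.57 ± 0.22; cryba1b, -0.53 ± 0.18), 3 rose (crygn1, 1.53 ± 0.26; crygs4, at least 1.05-fold higher, well above background on no array at 72 hpf; crygm5, 2.33 ± 0.96), and the other 18 lay between -0.62 and 0.83. All 4 falls but that of crygmx turned to rises with the authors' values and with quantile normalization. Quantile normalization gave 6 rises and no fall. With 1 array left out the main scaling gave 1 to 5 rises and 2 to 5 falls, with 1 rise without replicate 3 at 72 hpf, replicate 1 at 84 hpf or replicate 3 at 84 hpf, 5 rises without replicate 2 at 72 hpf, and 2 falls without that array or without replicate 3 or 4 at 84 hpf. crygn1 stood at 0.76, 0.71, 1.25 and 0.97 at 84 hpf and at -0.44, -0.34, -0.63 and -1.01 at 72 hpf. crygm5 stood at -0.88, -1.67, -0.64 and -0.98 at 84 hpf and at -2.14, -1.14, -3.58 and -6.62 at 72 hpf, and its ages overlapped; without replicate 4 at 72 hpf its difference was 1.33 and did not pass. Near-identical γM-crystallins can share a probe, so single members of that family are uncertain. Of 16 other lens genes, the gap-junction gene gja3 (-1.13 ± 0.44, arrays overlapping), fabp4b (-0.75 ± 0.16), prox1a (-0.41 ± 0.13) and mafa (-0.19 ± 0.06) fell, and the membrane protein lim2.3 (1.23 ± 0.32) and foxe3 (0.66 ± 0.17), a factor of the lens epithelium, rose.

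Glial and connective tissue genes gave both directions. In Müller glia 6 of 19 rose, led by sparc, a matrix glycoprotein that other cells also make (1.43 ± 0.13, one other probe -0.42), and the prostaglandin synthases ptgdsb.2 (0.96 ± 0.18) and ptgdsb.1 (0.87 ± 0.16), and 5 fell, led by icn (-1.01 ± 0.17), aqp1a.1 (-0.48 ± 0.10) and vimentin, vim (-0.48 ± 0.12). The shares that rose and fell were 31.6% and 26.3%, beside 22.9% and 30.8% of all genes. Among genes of corneal stroma, sclera and cartilage, matn1, a cartilage matrilin, stood at 2.71, 2.31, 2.82 and 2.73 at 84 hpf against 0.04, -0.14, 0.80 and 0.08 at 72 hpf, 5.46-fold higher (2.45 ± 0.39), and ogna (1.90 ± 0.22) and epyc (0.96 ± 0.29), both small matrix proteoglycans, rose as well. The chondrocyte factor sox9a fell (-1.83 ± 0.18, other probe -1.91), as did the type I collagen chains col1a2 (-0.68 ± 0.13) and col1a1a (-0.61 ± 0.12). Of 6 myelin and oligodendrocyte genes tested, 3 fell, 2 of them by at least 2-fold, and 2 rose, with a median of -0.25. The myelin proteolipid plp1a fell most (-1.84 ± 0.32), and plp1b (0.71 ± 0.15) and cldnk (0.86 ± 0.18) rose. 1 of the 6 genes was well above background on none of the 8 arrays.

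Genes listed as markers of other tissues also changed between the groups, and the tissue their RNA came from was not measured. Liver, intestine and yolk genes fell most, and here the 2 slides at 84 hpf stood apart. apoa4b.1, an apolipoprotein, stood at -1.75, -2.48, 1.09 and 1.79 at 84 hpf and at 2.55, 2.82, 2.6 and 2.43 at 72 hpf (-2.94 ± 0.84, adjusted p = 0.00568). fabp1b.1, a fatty acid binding protein of the intestine, stood at -3.03, -3.09, -0.51 and 0.61 at 84 hpf and at 2.27, 2.48, 2.49 and 2.4 at 72 hpf (-3.91 ± 0.73). For kng1, the plasma protein kininogen, the values were -5.34, -5.56, -2.33 and -2.03 at 84 hpf and -0.82, -1.12, -0.78 and -1.01 at 72 hpf (-2.88 ± 0.67). In all 3 genes replicates 1 and 2 at 84 hpf lay more than 2.5 log2 units below replicates 3 and 4, and every array at 84 hpf lay below every array at 72 hpf. The fit used 1 slide correlation of 0.13 for all probes. That value may be too low for genes split by slide in this way, and their SEs and p-values are then too small. apoa4a (-3.21 ± 0.64), zgc:123103 (-3.14 ± 0.75) and the phospholipase-like pla2g12b (-3.13 ± 0.70) were also among the 15 largest falls. Of 7 liver and yolk plasma protein genes 6 fell (fgb, -2.71 ± 0.81; apobb.1, -2.53 ± 0.69; apoa1a, -2.42 ± 0.85; fgg, -2.02 ± 0.71), with arrays of apobb.1 and fgg overlapping. Without replicate 1 at 84 hpf 3 of the 6 remained past the threshold. The summed relative signal of the list (linear signals over the 75th percentile, added over its genes) ranged over 38.3 to 52.5 at 84 hpf and 69.6 to 72.9 at 72 hpf. Such a sum follows the brightest probes of a list, here and below, so it can move unlike the median of the list. rbp4 of the visual cycle list is one of these 7, and the part of liver RNA in its fall was not tested.

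Heart muscle genes, a list added after their values were seen, fell in 6 of 11 and rose in none, with a summed relative signal of 25.6 to 30.0 at 84 hpf and 37.6 to 41.4 at 72 hpf. The cardiac myosin light chain cmlc1 stood at -0.19, -2.10, 0.05 and 0.15 at 84 hpf and at 2.82, 2.5, 2.33 and 2.42 at 72 hpf (-3.04 ± 0.79), and the myosin heavy chain myh7l differed by -2.78 ± 0.68. nppa (-2.72 ± 0.88), myh6 (-2.61 ± 0.70) and myl7 (-2.56 ± 0.94) followed, nppa and myh6 with 3 of 4 arrays at 84 hpf above background. Replicate 2 was the lowest array at 84 hpf for cmlc1 and myh7l. Without it the difference was -1.81 for nppa, and myl7 no longer passed.

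Red blood cell genes fell in 16 of 21 and rose in 1, with a summed relative signal of 114 to 144 at 84 hpf and 269.6 to 364 at 72 hpf. The embryonic globin hbbe3 stood at 0.59, -1.23, -1.03 and 0.43 at 84 hpf and at 3.39, 2.87, 2.39 and 2.66 at 72 hpf, 8.79-fold lower (-3.14 ± 0.46). The anion exchanger slc4a1a (-1.69 ± 0.27) and the globins hbae4 (-1.46 ± 0.27) and hbae1.1 (-1.41 ± 0.19) followed, with globin paralogs that a probe may not separate, and cahz, a carbonic anhydrase that is also on the Müller glia list, rose (0.58 ± 0.21). In vessels 3 of 12 fell, cdh5 (-0.88 ± 0.26), aplnrb (-0.67 ± 0.13) and fli1 (-0.54 ± 0.08), and 3 rose, plvapb (0.43 ± 0.09), tek (0.37 ± 0.10) and etsrp (0.24 ± 0.10). Each count is 25% of the list, near the 30.8% and 22.9% of all genes that fell and rose.

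Skeletal muscle genes moved upward. 17 of 35 rose and 2 fell (unc45b and actc1a), with a median of 0.88 and a summed relative signal of 297 to 335 at 84 hpf and 146 to 239.6 at 72 hpf. The calcium pump atp2a1 stood at 4.04, 3.90, 4.12 and 3.64 at 84 hpf and at 1.59, 1.88, 2.38 and 1.83 at 72 hpf, 4.01-fold higher (2.0 ± 0.33). tpma, a tropomyosin (1.88 ± 0.48), pvalb4, a parvalbumin (1.84 ± 0.67), and atp2a1l (1.73 ± 0.57) followed. Eye muscles develop at these ages, and muscle that came with the eyes in dissection cannot be told apart from them.

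**Figure D4:**
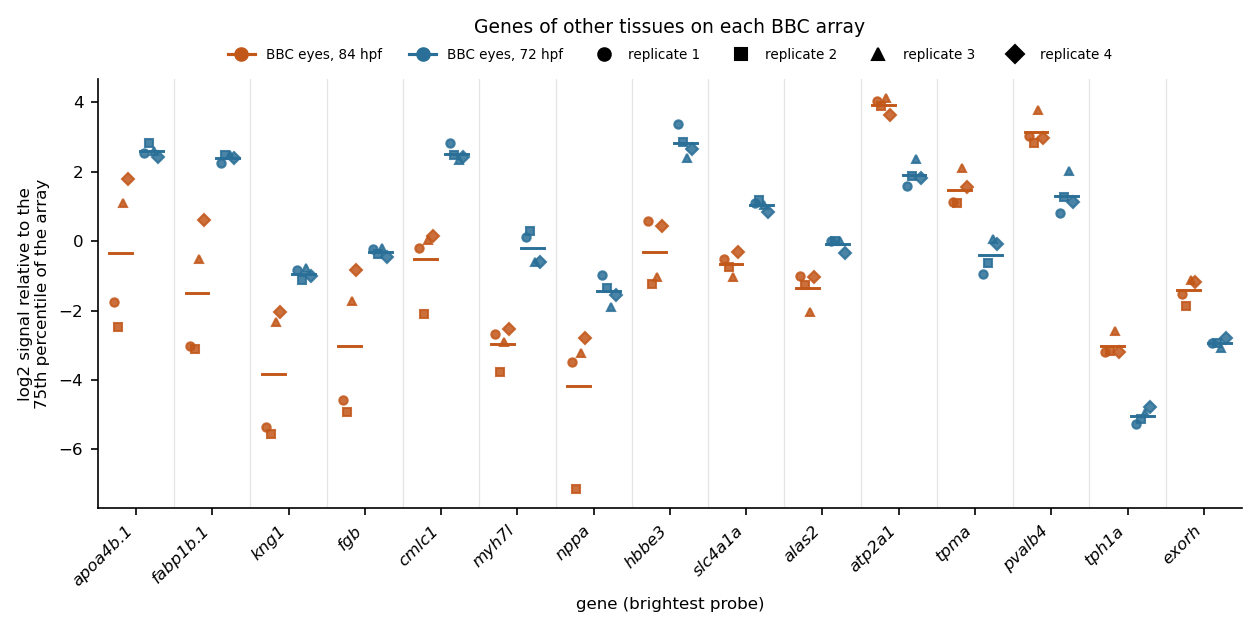
Log2 signal over the array's 75th percentile (vertical axis) for 15 genes of other tissues (horizontal axis), with 4 arrays of BBC eyes at 84 hpf to the left of 4 arrays at 72 hpf for each gene; point shapes are replicates and bars are group means. For apoa4b.1, fabp1b.1, kng1 and fgb replicates 1 and 2 at 84 hpf lie far below replicates 3 and 4, while the 4 arrays at 72 hpf lie close together.

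Macrophage and microglia genes rose in 9 of 27 and fell in 6, with a summed relative signal of 50.8 to 61.4 at 84 hpf and 45.8 to 53.0 at 72 hpf. The shares that rose and fell were 33.3% and 22.2%, beside 22.9% and 30.8% of all genes. The rises were led by the cathepsins ctss2.1 (1.80 ± 0.15) and ctss2.2 (1.59 ± 0.11), havcr1 (1.23 ± 0.18), a receptor of phagocytes, and lgals3bp.1 (0.97 ± 0.20). The lineage genes csf1ra (-0.98 ± 0.23, other probe 0.01), spi1b (-0.55 ± 0.17) and mpeg1.1 (-0.44 ± 0.15) fell. Surface epithelium fell in 7 of 17 genes, with krt97 (-0.87 ± 0.16), krt5 (-0.85 ± 0.15) and agr1 (-0.81 ± 0.11) lowest and a summed relative signal of 505 to 708 at 84 hpf and 734 to 908 at 72 hpf, and its median relative to all genes was -0.12 here but 0.08 with quantile normalization and with the authors' values. Of 15 hormone and neuropeptide genes 6 fell, led by avp (-1.46 ± 0.22), hcrt (-1.38 ± 0.13) and sst1.1 (-1.26 ± 0.15), and npy (0.55 ± 0.17) and trh (0.56 ± 0.17) rose. Relative to the mean at 72 hpf the median of this list was -0.69 and -0.94 on replicates 1 and 2 and -0.12 and -0.19 on replicates 3 and 4 at 84 hpf, and the medians of replicates 3 and 4 lay within the range of the arrays at 72 hpf. Of 4 pineal genes, tph1a, an enzyme of serotonin synthesis (2.0 ± 0.15), the pineal opsin exorh (1.52 ± 0.13) and opn3 (1.37 ± 0.24) rose and tph2 fell (-0.53 ± 0.17), with a summed relative signal of 1.09 to 1.49 at 84 hpf and 1.01 to 1.16 at 72 hpf. Pineal photoreceptors share transcripts such as gnat2 and arr3a with those of the retina, and the part of pineal RNA in the photoreceptor rises was not tested.

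A small set of genes crossed the background. 25 genes were well above it on the 4 arrays at 84 hpf and on none at 72 hpf, and 18 of them passed. Selection by detection favours passing, so the counts that passed here are no separate support. The lowest signal well above background lay between -7.02 and -6.21 at 84 hpf and between -6.31 and -5.53 at 72 hpf. The numbers of genes in the 2 directions are therefore not compared. Folds are bounds here, the mean at the bright age over the higher of the lowest signal well above background and the probe's own signal at the other age. Of the 18 genes, 16 had a bound above 1. The largest bounds were those of abcg4b, a sterol transporter (at least 2.46-fold higher at 84 hpf), the nicotinic receptor subunit chrnb3b (at least 2.32-fold), paplnb (at least 2.23-fold), si:dkey-172h23.2 (at least 1.76-fold) and the kinase mylk3 (at least 1.61-fold). 5 genes were above background on the 4 arrays at 72 hpf and on none at 84 hpf, and all 5 passed: pmepa1 (at least 3.80-fold lower at 84 hpf), pomk (at least 3.68-fold), a kinase of dystroglycan sugars, emilin1b (at least 3.46-fold), rhoub (at least 3.19-fold) and the growth factor fgf2 (at least 3.0-fold). abcg4b had means of -4.67 ± 0.64 at 84 hpf and -7.11 ± 0.70 at 72 hpf, and pmepa1 had -7.34 ± 0.34 and -4.68 ± 0.31 at these ages (SD, n = 4 each).

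Eyes exposed to MBZ were sampled over the same 12 h, on the same slides. MBZ, mebendazole, is an anthelmintic that binds tubulin, and the question set by this comparison is which changes with age also occurred beside a second compound. Of the 1049 genes that changed by at least 2-fold in BBC eyes, 857 (81.7%) did so in the same direction in MBZ eyes, which is 72.6% of the 1181 genes so changed in MBZ eyes (12.1% of all), where 55.4% of all genes passed without regard to size. Across 9739 genes the 2 changes had a Pearson correlation of 0.93, given as a description because both compounds share slides, scan days and probes, and genes are not independent replicates. opn1mw1 differed by 5.2 in MBZ eyes beside 5.26 in BBC eyes, gnat2 by 3.6 beside 3.70, per1b by -4.21 beside -4.83, notch1b by -2.81 beside -2.70 and fabp1b.1 by -3.63 beside -3.91.

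The difference between the 2 changes was tested directly, BBC minus MBZ. In this test 9 of 31506 probes passed (0.0286%), and 2064 (6.55%) had an unadjusted p below 0.05. For 8 of the 9 the difference was positive, with a fall in MBZ eyes and a smaller fall or no fall in BBC eyes. The 5 of these 9 with a gene name were iglon5, a neuronal adhesion protein (adjusted p = 2.76e-04), angptl2a (adjusted p = 0.00226), fam210ab (adjusted p = 0.0449), cryba2b (1.58 ± 0.25, adjusted p = 0.0303) and baiap2l1a (-0.68 ± 0.11). These are calls of single probes. Read from the brightest probe of each gene, 3 of 9739 genes passed, all with a positive difference, and baiap2l1a was not among them. In MBZ eyes at 84 hpf iglon5 and angptl2a were well above background on none of the 4 arrays, whose lowest such signals lay between -7.28 and -6.46, and fam210ab on 1, so their differences have no exact size. With the replicate number as a block 2 probes passed, those of iglon5 and angptl2a, and with the authors' values no named gene passed. iglon5 had means of -6.15 at 84 hpf and -4.57 at 72 hpf in BBC eyes, against -4.56 at 72 hpf in MBZ eyes. cryba2b, a β-crystallin, had means of 6.43 at 84 hpf and 7.01 at 72 hpf in BBC eyes, against 5.0 and 7.15 in MBZ eyes. Over the 25 crystallins the median change was -0.13 in BBC eyes, where 4 fell and 3 rose, and -0.99 in MBZ eyes, where 18 fell and 1 rose. In BBC eyes these counts are 16% and 12% of the list, beside 30.8% and 22.9% of all genes. In MBZ eyes 30% of all genes fell and 25.4% rose. The BBC median turned to 0.23 with the authors' values (MBZ -0.42), to 0.29 with quantile normalization (MBZ -0.59) and to 0.033 without BBC replicate 2 at 72 hpf. The difference between the compounds was tested gene by gene, and cryba2b was the crystallin that passed. Leaving out 1 array at a time left between 2 and 56 probes in this test, with 50 without MBZ replicate 1 at 72 hpf and 56 without MBZ replicate 4 at 84 hpf.

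**Figure D5:**
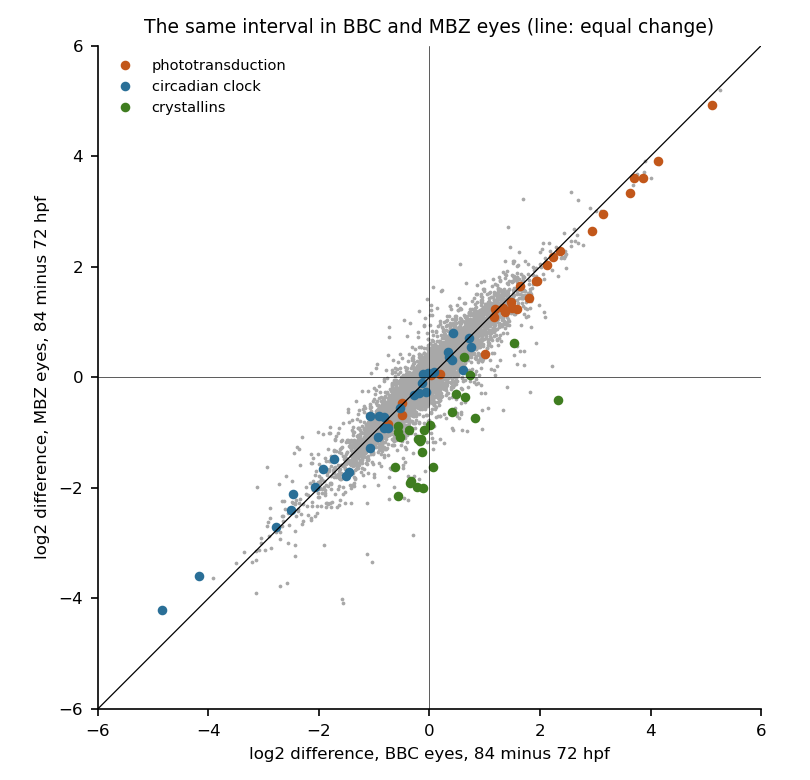
Log2 difference between 84 and 72 hpf in BBC eyes (horizontal axis) and in MBZ eyes (vertical axis) for 9739 genes (grey), with phototransduction, circadian clock and crystallin genes in colour; the diagonal marks equal change. Phototransduction and clock genes lie along the diagonal, and most crystallins lie below it.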

How the data were processed

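Expression was measured on 24 one-colour Agilent arrays, of which the 8 BBC arrays at 84 and 72 hpf are described here. Per the labels, sources and file headers, the authors labelled RNA with Cy3, scanned the arrays and extracted spot intensity with Agilent Feature Extraction (8.0 in the submitters' processing notes, 10.1.1.1 in the file headers). Per the file headers, the deposited processed intensity is background-corrected. The deposited log2 values were filtered on 4 spot flags and normalized by the authors with Agi4x44PreProcess, and were used as an alternative.

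The log2 of the processed intensity of each spot was taken relative to the array's 75th percentile over probe spots, with no pseudocount. Non-uniform spots were left out and spots of a probe averaged. A probe was kept if 1 or more of the 6 conditions had all 4 arrays positive and well above background (31507 of 43603). Genes were named by RefSeq accession (15163 probes, 10536 names), and each gene was read from its brightest probe.

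All 24 arrays entered 1 limma fit (limma 3.58.1 in R 4.3.3, statmod 1.5.0, data.table version 1.17.8) with the 6 conditions and the slide as a random block (duplicateCorrelation, correlation 0.13). Benjamini-Hochberg adjustment ran over all probes. Slides held 1 age each, so age was not tested within a slide. Python 3.11.15, numpy 2.4.6 and pandas 2.3.3 summarised the fits. The fit was tested on simulated data. Alternatives were no filter or 4 flags, quantile normalization, normexp (offset 50), the authors' values, the mean over probes, the 8 arrays alone, slide or replicate blocks, leaving out arrays, and an adjusted p of 0.20. Another was the rank product named in the study's methods, with 100 permutations and 13778 probes called at an FDR below 20%. It took 16 pairs of arrays as if they were independent, although they share 8 arrays. Normexp with quantile normalization and the heart list were added after seeing the data.

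The arrays and gene lists were chosen with earlier results of these data known. Genes were named by rule: the 15 largest called rises and falls above background on all 8 arrays without overlap, the 5 largest bounds in each direction, in each list up to 4 called members with the largest changes and any called member against most of its list, and the called clock, opsin, phototransduction and crystallin genes. Other names were chosen after their values were seen. Precision is limited by the number of arrays and, for the ages, by the 6 slides and 3 scan days of the series. The p-values measure the spread between pools within a condition, and a difference between scan days is not part of that spread. Some items are not reported here.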

Additional observations from a re-analysis of the deposited data

Results flagged for a closer look

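In 28 of 544 groups of 4 arrays, 1 array stood far from the other 3 by Dixon's ratio, and chance alone flags about 1 group in 20. Signals are on the log2 scale used above, with the range of the other 3 arrays of the group in brackets. BBC replicate 2 at 84 hpf was lowest for the heart genes cmlc1 (-2.10, others -0.19 to 0.15), myl7 (-3.72, others -1.15 to -1.04) and nppa (-7.13, others -3.49 to -2.80). Without that array their differences were -2.58 for cmlc1 (adjusted p = 0.0116), -2.0 for myl7 (adjusted p = 0.084) and -1.81 for nppa (adjusted p = 0.0495), from limma. BBC 84 hpf replicate 1 gave 3.84 for hspa9 (3.96 to 3.96). BBC 84 hpf replicate 2 gave 7.02 for eno1a (6.70 to 6.72), 3.38 for lim2.3 (3.93 to 4.02) and 4.62 for otx5 (4.44 to 4.46). BBC 84 hpf replicate 3 gave -1.46 for etsrp (-1.73 to -1.70), -2.01 for guca1b (-2.73 to -2.64), 2.41 for onecut1 (3.19 to 3.33), 2.90 for rcvrna (2.37 to 2.45), 2.78 for tbx2b (4.34 to 4.40), -4.72 for tfec (-4.39 to -4.33), -2.59 for tph1a (-3.18 to -3.15) and 3.68 for vim (3.31 to 3.37). BBC 84 hpf replicate 4 gave -1.60 for hbae4 (-2.42 to -2.32), 0.93 for orc3 (0.69 to 0.73), 4.64 for six3b (4.83 to 4.84) and -4.80 for slc6a9 (-4.26 to -4.18). BBC 72 hpf replicate 1 gave -2.05 for cntn2 (-2.26 to -2.23). BBC 72 hpf replicate 2 gave 0.06 for trh (0.47 to 0.54). BBC 72 hpf replicate 3 gave -3.27 for bhlhe41 (-3.55 to -3.53), -2.49 for havcr1 (-2.13 to -2.11), 0.46 for nr1d1 (-0.18 to -0.14), -1.57 for per1a (-1.87 to -1.82) and -0.20 for pkmb (-1.18 to -1.03). BBC 72 hpf replicate 4 gave 6.37 for icn (6.60 to 6.63) and -1.11 for mpeg1.1 (-0.70 to -0.63).

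The change between 84 and 72 hpf differed between BBC and MBZ eyes, by the test of the difference itself, in baiap2l1a (-0.68, adjusted p = 0.0305), cryba2b (1.58, adjusted p = 0.0303), angptl2a (2.56, adjusted p = 0.00226), iglon5 (2.42, adjusted p = 0.000276) and fam210ab (2.35, adjusted p = 0.0449), all BBC minus MBZ, by limma over all probes. In MBZ eyes at 84 hpf angptl2a and iglon5 were well above background on none of the 4 arrays and fam210ab on 1, so the values of these genes are no exact sizes. All these are calls of single probes. Read from the brightest probe of each gene, 3 genes passed, and baiap2l1a was not among them. The calls for baiap2l1a, cryba2b and fam210ab did not hold in the fits without a slide block or with a replicate block, with adjusted p between 0.0504 and 0.0925.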

How the results depend on the processing

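Of 16962 probes that differed between 84 and 72 hpf, 563 passed after a normexp background correction of the median spot signals. That was the setting with the largest effect. The slide correlation was 0.68 in that fit and 0.13 in the main fit. Between 15821 and 16200 probes passed when 1 BBC array was left out. The 4812 probes with a change of at least 2-fold became 3122 with the stricter filter of 4 flags on all arrays, 2814 with the authors' values, 1365 with normexp and quantile normalization, an alternative added after the data were seen, 561 with normexp alone, and 4414 to 5017 without 1 array. The 9 probes whose change differed between the compounds became 1 with the authors' values, 2 without the slide block, 2 with the replicate number as a block, 5 with the slide as a fixed block, 43 at an adjusted p below 0.20 and 2 to 56 without 1 array. Same-numbered BBC arrays did not deviate together in every pair (correlations of 0.13, -0.05, 0.10 and 0.22 over the 4 numbers), so for the comparison of the ages the numbers were not taken to pair the samples. Same-numbered BBC and MBZ arrays, which lay on the same slide, correlated at 0.31, 0.15, 0.20 and 0.43 at 72 hpf and at -0.022, 0.15, 0.37 and 0.013 at 84 hpf. With the replicate block 18611 probes differed between the ages and no gene named here changed its call in that comparison. List medians relative to all genes moved by more than the spread between arrays as follows. With normexp and quantile normalization they were 3.35 for visual opsins, 0.38 for melanin synthesis, -0.52 for ganglion cell and axon growth, -0.35 for circadian clock, -0.0009 for oxidative phosphorylation, -0.20 for cytosolic ribosomal proteins and -0.056 for tubulins. With the mean over the probes of a gene they were 0.74 for visual cycle and 0.58 for melanin synthesis. With the normexp correction they were 1.05 for visual cycle, 0.67 for melanin synthesis, 0.31 for crystallins, 0.28 for retinal progenitors, 0.048 for ganglion cell and axon growth, 0.27 for DNA replication, 0.39 for mitosis, -0.96 for circadian clock, -1.15 for red blood cells, 0.92 for glycolysis, 0.51 for oxidative phosphorylation, -0.16 for cytosolic ribosomal proteins and 0.13 for tubulins. With quantile normalization they were -0.31 for retinal progenitors, -0.0069 for oxidative phosphorylation, -0.18 for cytosolic ribosomal proteins and -0.039 for tubulins. With the authors' values they were -0.29 for retinal progenitors, -0.56 for circadian clock, 0.033 for oxidative phosphorylation, -0.14 for cytosolic ribosomal proteins and 0.024 for tubulins. Without 1 array the circadian clock median lay between -0.86 and -0.58.

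Of 267 called genes named in the text, 237 kept direction and call when any 1 array was left out, and 199 did so under every alternative but the normexp correction, with which 40 did under all. Directions that turned, as log2 differences, were these, and the cause was not tested. With the normexp correction: aanat1 -0.41, abca4a -0.036, abcg4b -1.71, actc1a 0.78, agr1 0.066, aplnrb 0.19, aqp1a.1 0.20, bhlhe41 -1.26, ccna2 0.28, chrnb3b -1.63, cldnk -0.57, col1a1a 0.37, col1a2 0.11, cox6b2 0.18, cry3b -1.18, cryba1b 0.40, cryba2b 0.25, crygm2d18 0.19, crygm5 -0.097, crygmx 0.36, crygs4 -2.04, ctss2.1 -1.36, ctss2.2 -0.075, dusp1 0.14, egr2b -0.96, eno1a 0.63, etsrp -0.51, exorh -0.022, fabp4b 0.091, fbxl3b 0.23, fli1 0.093, gapdhs 0.35, gnb1b 0.23, grk1a -1.73, grk7b -1.45, guca1aa -0.58, guca1b -0.52, guca1c -0.67, hsp90ab1 0.14, hsp90b1 0.35, hspb3 -1.75, hspb6 0.23, krt5 0.10, krt97 0.21, ldha 0.81, mybl2b 0.023, mylk3 -1.95, npy -0.12, nuf2 0.086, opn1mw3 -2.01, opn3 -0.69, paplnb -1.67, pfkmb -0.98, pgam1a 0.33, plp1b -1.02, prox1a 0.34, psma5 0.064, rb1 -1.29, rbp4 0.44, si:dkey-172h23.2 -1.70, tbx2b 0.078, tfec -1.61, tph1a -0.76, tuba1c 0.036, tuba8l4 0.11, tubb4b 0.18, tyrp1b 0.31, uqcrb 0.022 and vim 0.51. With the authors' values: cdh5 0.051, cryba1b 0.23, cryba2b 0.075, crygm2d18 0.16, eno1a 0.39, fbxl3b 0.084, hsp90ab1 0.0055, tuba8l4 0.10, tubb4b 0.097 and tyrp1b 0.25. With normexp and quantile normalization: cryba1b 0.26, crygm2d18 0.077, eno1a 0.41, fbxl3b 0.0086, hsp90ab1 0.028, ldha 0.013, tuba8l4 0.034, tubb4b 0.068 and tyrp1b 0.13. With quantile normalization: cryba1b 0.15, cryba2b 0.031, crygm2d18 0.089, eno1a 0.36, fbxl3b 0.0044 and tyrp1b 0.18. With the mean over the probes of a gene: eno1a 0.30, hspa9 -0.10, rb1 -0.11 and smc2 -0.31. Without 1 array, crx, which had not passed, lay between -0.048 and 0.13. Without 1 array, otx5, which had not passed, lay between -0.062 and 0.054. Calls were lost in 30 genes when 1 array was left out, between 8 and 18 genes an array. The array whose loss gave the highest adjusted p, and that p, were: BBC 72 hpf rep 1, grk1a 0.0525; BBC 72 hpf rep 2, gja3 0.116 and si:dkey-172h23.2 0.0686; BBC 72 hpf rep 3, crygm2d18 0.119, crygs4 0.0869, hsc70 0.0735, ldha 0.0876, mpeg1.1 0.0578, orc3 0.0677, pcna 0.132, rb1 0.0502 and smc4 0.0587; BBC 72 hpf rep 4, cahz 0.0795, crygm5 0.187 and prdm1a 0.116; BBC 84 hpf rep 1, eno1a 0.108 and rbp4 0.0755; BBC 84 hpf rep 2, apoa1a 0.0779, fgg 0.0753, gng3 0.0535 and myl7 0.084; BBC 84 hpf rep 3, cryba1b 0.0596, etsrp 0.145, hspb3 0.138, pvalb4 0.0631 and roraa 0.0579; BBC 84 hpf rep 4, actc1a 0.11, fbxl3b 0.126, gapdhs 0.058 and tyrp1b 0.138.

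The 75th percentile of signal lay at 983 to 1414 on the arrays at 84 hpf and at 490 to 705 on those at 72 hpf, and 68.2 to 76.3% and 66.6 to 73.3% of probes were well above background on them, so genes near background, where a fold is only a bound, are the least certain. No array held a saturated spot.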
